A study of Mus musculus with 14 samples.

Results

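The smooth muscle contractile genes described here are 33 genes that encode the filaments, regulators, linkers, calcium-handling proteins and transcriptional coactivator of the contractile apparatus, out of 19096 named genes on the arrays. Each gene was taken by its symbol. Where several probes measured a gene, the probe with the highest mean signal over all 14 arrays stood for it, so the probes were chosen by their mean signal. The list was drawn up with earlier results of these data in view, and its counts are given as a description beside those over all probes. All 33 probes passed the filter on dim probes, and 32 of them were well above background on all 14 arrays.

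Smooth muscle shortens when calcium entering through voltage-gated channels binds calmodulin and activates myosin light chain kinase, which phosphorylates the regulatory light chain and lets myosin pull on actin. A phosphatase reverses the step, and thin filament proteins such as calponin and caldesmon restrain it. In the colon, circular and longitudinal muscle layers outside the mucosa propel the contents, and a thin sheet of muscle underlies the mucosa.

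Total RNA from whole colon of female C57BL/6 mice aged 4 to 6 months was hybridised to 1-colour arrays, 1 array for each of 14 samples. Flox mice carry GR fl/fl, the floxed gene of the glucocorticoid receptor Nr3c1. GR iKO mice carry the same alleles with Villin-cre, which deletes the receptor gene constitutively in intestinal epithelium and does not target the muscle layers. There were 4 Flox and 4 GR iKO samples on regular water for 7 days, and 3 Flox and 3 GR iKO samples on water with 2.5% dextran sulfate sodium (DSS), a sulfated polysaccharide that injures the colonic epithelium, for 7 days. Every group was on chow. No source says that samples were pooled.

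The 75th percentile of signal ran from 262 to 1003 over the arrays, and 62.6% to 71.3% of probes were well above background on each. Over all probes, water arrays varied less than DSS arrays, so the fit gave them a weight of 1.69 against 0.497. Nr3c1 in GR iKO was at 57.3% of Flox on water (exact permutation test, two-sided, p = 0.0286, n = 4) and at 56.1% on DSS (exact permutation test, two-sided, p = 0.1, n = 3, the smallest p that 3 against 3 can give). With arrays scaled to spike-in transcripts in place of their 75th percentile, the Nr3c1 difference on DSS turned to 0.38 (log2). Such scaling shifts all probes of an array by the same amount. Fewer cells of a type and less RNA per cell cannot be told apart in these bulk samples.

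Levels below are log2 signal relative to the 75th percentile of the same array, and differences are log2 differences ± SE from a limma fit over 29520 probes, with p adjusted by the Benjamini-Hochberg method over those probes. A gene is written as having risen or fallen at an adjusted p under 0.05. Values of arrays follow replicate number, which is 1, 2, 3 and 4 on water, 1, 2 and 4 for Flox on DSS, and 1, 3 and 4 for GR iKO on DSS.

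In Flox colon, DSS was accompanied by higher signal of most of the list. Of the 33 genes 28 rose and 0 fell, against 21.8% of all probes called higher and 25.4% called lower, but 26 of the 28 had the opposite sign under spike-in scaling. The largest increases were those of the actin-binding protein caldesmon, Cald1 (6.35-fold), the cytoskeletal protein smoothelin, Smtn (5.49-fold), and the small heat shock protein Hspb6 (4.65-fold), and of these Cald1 and Smtn stayed higher on the spike-in scale, with no call. The median of the 33 differences was 1.45 (2.73-fold), and that of all probes was −0.09. In 31 genes every Flox DSS array lay above every Flox water array, as did 25.8% of all probes, and in 1 gene, the calcium store protein Casq2, every DSS array lay below (31.5% of all probes). The 5 genes without a call were Actg2, Tpm1, Synm, Casq2 and Ldb3, of which Casq2 was called lower in 8 of 26 settings other than spike-in scaling. Casq2 was called lower with that scaling too, but there 85.5% of all probes were called and their median was −2.41, so this is no separate check.

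In GR iKO colon the same treatment gave 10 higher and 1 lower call among the 33 genes, against 19.1% and 19.8% of all probes. Cald1 was again the largest of them (3.35-fold), followed by the small heat shock protein Hspb7 (2.95-fold) and the calcium channel subunit Cacna1c (2.47-fold), and Casq2 fell to 16.8% of its water level. The other genes that rose were Smtn, Speg, Ppp1r14a, Myocd, Flna, Pgm5 and Nexn, and these 7 had the opposite sign, with no call, under spike-in scaling. The median difference was 0.38 (1.30-fold), that of all probes was −0.02, and in 9 genes every DSS array lay above every water array (22.6% of all probes) and in Casq2 every DSS array lay below (23.6%). The count rested in part on single arrays: it was 5 without GR iKO DSS replicate 3, 7 without GR iKO DSS replicate 4 and 16 without GR iKO water replicate 1. For those fits the share of all probes called is not given here.

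Between genotypes on water the contractile genes lay close together. No gene was called (limma, 0 of 33, and 0 at an unadjusted p under 0.05, against 1.7% of all probes higher and 1.62% lower there). Of 29520 probes 7 were called (0.0237%), and the 33 differences ran from −0.39 (Casq2) to 0.18 (Pln) with a median of −0.01. On DSS all 33 genes were lower in GR iKO than in Flox, at a median of −1.20 (43.6% of the Flox level), while the median of all probes was 0.03, but 18 of the 33 were higher in GR iKO on the spike-in scale. In 29 genes every GR iKO array lay below every Flox array, as did 11.6% of all probes, and the 4 genes whose arrays overlapped were Tagln, Hspb7, Ldb3 and Cacna1c.

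None of these differences on DSS reached the threshold (limma, 0 of 33 called, and 6 of 29520 probes, 0.0203%). At an unadjusted p under 0.05 there were 30 of the 33, all lower, against 8.99% of all probes lower and 8.79% higher at that threshold, and the lowest adjusted p was 0.0643, of Nexn. A single spread shared by all 14 arrays gave 29 calls and 13.2% of all probes, and a quality weight for each array gave 27 calls and 15.1%. There were 10 calls without GR iKO DSS replicate 3 and 6 without Flox DSS replicate 4, with the share of all probes called in those fits not given here. On the spike-in scale the median of the 33 was 0.01, with 15 genes lower and 18 higher, and that of all probes was 1.24. This scaling shifts all probes of an array by the same amount. It therefore cannot change where the genes stood relative to all probes (−1.22), and is no separate check of that. In the test of whether the response to DSS itself differed by genotype, 0 of 33 genes and 0 of 29520 probes were called. At an unadjusted p under 0.05 in that test there were 26 genes, all with the smaller or more negative response in GR iKO, against 7.42% of all probes with that sign and 7.45% with the other, and the median was −1.19, but on the spike-in scale, where most responses were below 0, 25 of the 33 were higher (mostly less negative) in GR iKO. A quality weight for each array gave 18 calls in this test (10% of all probes), and a shared spread 3 (0.112%).

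**Figure D1:**
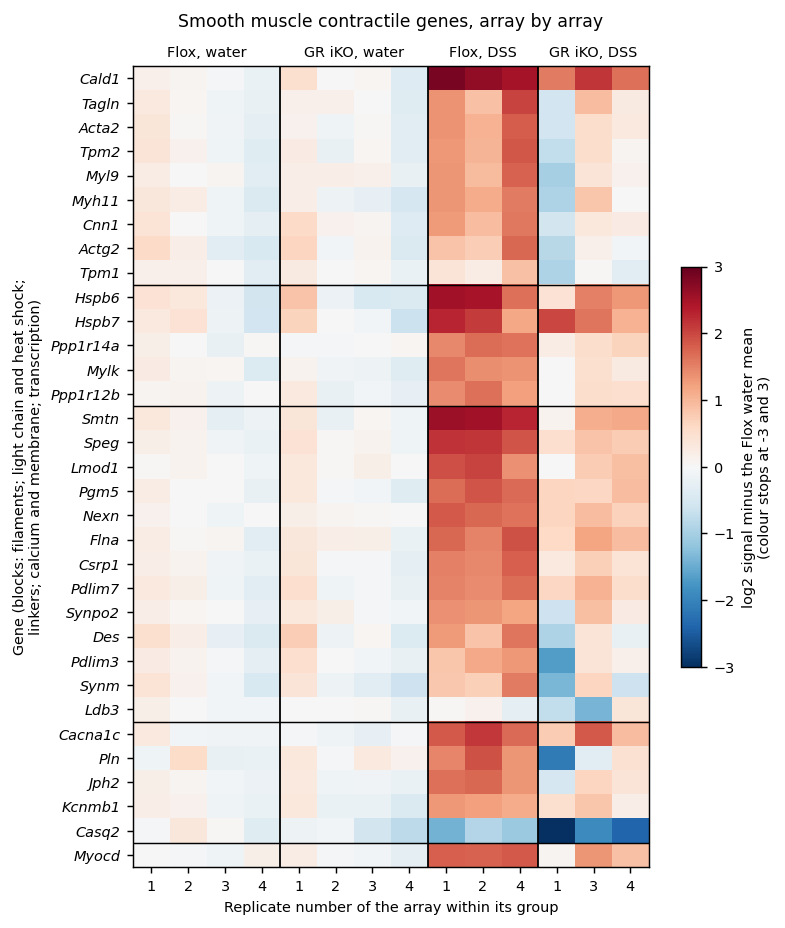
Each row is a gene and each column an array; colour gives the log2 signal minus the mean of the 4 Flox water arrays, with each array scaled to its 75th percentile. The Flox DSS columns are above 0 for 31 to 32 of the 33 genes, and the GR iKO DSS columns for 16, 30 and 28; on the spike-in scale the difference of Flox DSS from Flox water was below 0 for 31 genes.

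The filament proteins held 9 genes, of which 7 rose with DSS in Flox and 1, Cald1, in GR iKO, and apart from Cald1 their Flox differences were below 0 on the spike-in scale. Acta2, the smooth muscle alpha-actin of the thin filament, measured 7.25, 6.90, 6.77 and 6.59 in Flox and 7.00, 6.75, 6.91 and 6.54 in GR iKO on water. On DSS it measured 8.22, 7.93 and 8.70 in Flox and 6.31, 7.40 and 7.18 in GR iKO. The 3 Flox DSS arrays lay above all other arrays, and the GR iKO DSS arrays spanned the water range on both sides. The differences were 1.41 ± 0.28 with DSS in Flox (adjusted p = 0.00157), 0.17 ± 0.28 in GR iKO (adjusted p = 0.675) and −1.32 ± 0.36 between genotypes on DSS (adjusted p = 0.106).

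Myh11, the smooth muscle myosin heavy chain, measured 5.38, 5.24, 4.90 and 4.59 in Flox and 5.22, 4.88, 4.79 and 4.53 in GR iKO on water and 6.35, 6.15 and 6.59 in Flox and 4.09, 5.87 and 5.05 in GR iKO on DSS. GR iKO DSS replicate 1 was its lowest array of all 14, and the Flox DSS arrays were its highest. Its differences were 1.34 ± 0.36 with DSS in Flox (adjusted p = 0.00974), 0.15 ± 0.36 in GR iKO (adjusted p = 0.779) and −1.36 ± 0.47 between genotypes on DSS (adjusted p = 0.163). Myl9, the regulatory light chain that the kinase phosphorylates, measured 7.58, 7.35, 7.42 and 7.02 in Flox and 7.54, 7.54, 7.50 and 7.11 in GR iKO on water and 8.68, 8.28 and 9.11 in Flox and 6.36, 7.72 and 7.47 in GR iKO on DSS. It rose by 1.35 ± 0.29 in Flox (adjusted p = 0.00266), measured −0.24 ± 0.29 in GR iKO (adjusted p = 0.553), and had the lowest genotype difference on DSS among the filament genes, −1.51 ± 0.38 (adjusted p = 0.092).

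Calponin Cnn1 and transgelin Tagln are actin-associated proteins used as markers of differentiated smooth muscle. Cnn1 measured 7.85, 7.46, 7.31 and 7.15 in Flox and 8.02, 7.56, 7.53 and 7.05 in GR iKO on water and 8.73, 8.38 and 9.04 in Flox and 6.88, 7.77 and 7.69 in GR iKO on DSS. It rose by 1.27 ± 0.34 in Flox (adjusted p = 0.00833), measured −0.10 ± 0.34 in GR iKO (adjusted p = 0.848), and all its GR iKO DSS arrays lay below its Flox DSS arrays. Tagln measured 7.71, 7.47, 7.29 and 7.20 in Flox and 7.58, 7.58, 7.41 and 7.05 in GR iKO on water and 8.76, 8.30 and 9.46 in Flox and 6.85, 8.35 and 7.68 in GR iKO on DSS. Here GR iKO DSS replicate 3 exceeded Flox DSS replicate 2, so the genotypes overlapped. Tagln rose by 1.42 ± 0.32 in Flox (adjusted p = 0.0035) and differed by −1.21 ± 0.42 between genotypes on DSS (adjusted p = 0.163).

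Actg2, the gamma-actin of visceral smooth muscle, measured 5.17, 4.78, 4.28 and 4.12 in Flox and 5.24, 4.50, 4.70 and 4.15 in GR iKO on water and 5.45, 5.33 and 6.31 in Flox and 3.75, 4.73 and 4.50 in GR iKO on DSS. Its Flox DSS arrays lay above its Flox water arrays, but 2 of them only narrowly, and its difference of 1.11 ± 0.44 was not called (adjusted p = 0.0536). Tpm1, a tropomyosin that lies along actin, measured 6.03, 6.02, 5.89 and 5.55 in Flox and 6.15, 5.87, 5.94 and 5.66 in GR iKO on water and 6.27, 6.10 and 6.75 in Flox and 4.93, 5.91 and 5.53 in GR iKO on DSS. It had the smallest Flox difference of the filament genes, 0.50 ± 0.25 (adjusted p = 0.116), and the most negative GR iKO difference, −0.45 ± 0.25 (adjusted p = 0.177). The probes of Tpm1 disagree: of 3 dimmer ones, 1 was called higher in both genotypes, at 2.38 ± 0.31 in Flox (adjusted p = 9.4e-05) and at 1.19 ± 0.31 in GR iKO (adjusted p = 0.0103), and the others had the signs of the main probe with no call. The other tropomyosin, Tpm2, rose by 1.39 ± 0.33 in Flox (adjusted p = 0.00402).

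Cald1 stood apart from the other filament genes in GR iKO. It measured −0.31, −0.37, −0.50 and −0.65 in Flox and 0.03, −0.45, −0.40 and −0.84 in GR iKO on water and 2.38, 2.21 and 2.03 in Flox and 1.11, 1.68 and 1.20 in GR iKO on DSS, with every DSS array of both genotypes above every water array. It rose by 2.67 ± 0.26 in Flox (adjusted p = 1.17e-05) and by 1.74 ± 0.26 in GR iKO (adjusted p = 0.000311). A second probe of Cald1 gave 2.54 in Flox and 1.54 in GR iKO.

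**Figure D2:**
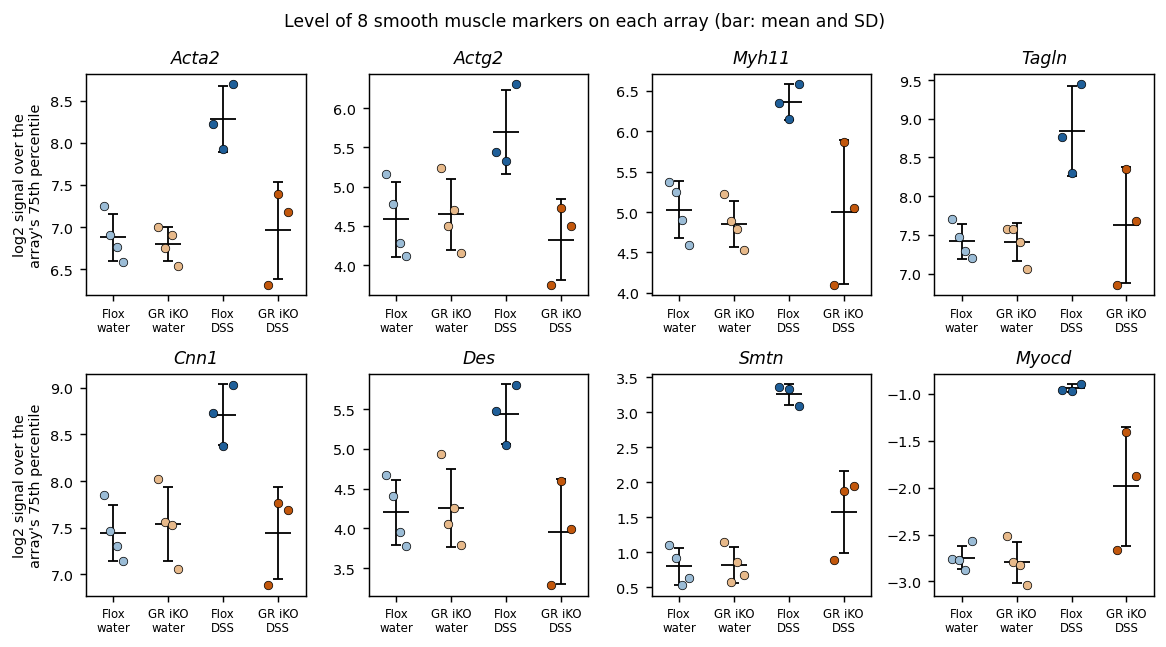
Points are arrays, the horizontal bar is the mean of a group and the whiskers its SD (n = 4 on water, n = 3 on DSS); the y axis is log2 signal over the 75th percentile of the array and its range differs between panels. Flox DSS arrays are the highest in each panel apart from the overlap in Tagln, and the 3 GR iKO DSS arrays are spread widely, with replicate 1 (leftmost) the lowest; on the spike-in scale the Flox DSS mean was below the Flox water mean in every panel but that of Smtn.

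The 5 genes of light chain phosphorylation and the small heat shock proteins all rose with DSS in Flox, and 2 of them, Hspb7 and Ppp1r14a, in GR iKO, while the Flox differences of all 5 were below 0 on the spike-in scale. Mylk, the myosin light chain kinase, measured 5.79, 5.63, 5.60 and 5.14 in Flox and 5.63, 5.44, 5.40 and 5.17 in GR iKO on water and 7.15, 6.92 and 6.89 in Flox and 5.54, 6.02 and 5.80 in GR iKO on DSS. The GR iKO arrays on DSS overlapped the water arrays, and the differences were 1.45 ± 0.23 in Flox (adjusted p = 0.000293) against 0.38 ± 0.23 in GR iKO (adjusted p = 0.208). Ppp1r12b, a targeting subunit of myosin phosphatase, measured 1.23, 1.25, 0.99 and 1.14 in Flox and 1.44, 0.93, 1.06 and 0.91 in GR iKO on water and 2.58, 2.81 and 2.38 in Flox and 1.15, 1.68 and 1.67 in GR iKO on DSS. It rose by 1.44 ± 0.20 in Flox (adjusted p = 0.000156), the smallest Flox difference of this set.

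Ppp1r14a, the inhibitor of myosin phosphatase also known as CPI-17, measured 2.70, 2.54, 2.30 and 2.54 in Flox and 2.48, 2.47, 2.51 and 2.58 in GR iKO on water and 3.96, 4.20 and 4.14 in Flox and 2.75, 3.06 and 3.18 in GR iKO on DSS. The 3 groups of values were separate, with water lowest, GR iKO DSS between and Flox DSS highest. It rose by 1.58 ± 0.15 in Flox (adjusted p = 1e-05) and by 0.49 ± 0.15 in GR iKO (adjusted p = 0.0204), and its genotype difference on DSS was −1.10 ± 0.19 (adjusted p = 0.071).

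Hspb6, a small heat shock protein phosphorylated during smooth muscle relaxation, measured −1.83, −1.94, −2.44 and −2.82 in Flox and −1.39, −2.42, −2.71 and −2.69 in GR iKO on water and 0.27, 0.22 and −0.60 in Flox and −1.82, −0.74 and −0.97 in GR iKO on DSS. Its DSS arrays lay above its water arrays in Flox and overlapped them in GR iKO. It rose by 2.22 ± 0.50 in Flox (adjusted p = 0.00311) and measured 1.13 ± 0.50 in GR iKO (adjusted p = 0.0926). Hspb7, a small heat shock protein known from heart and skeletal muscle, measured −0.99, −0.86, −1.44 and −1.85 in Flox and −0.61, −1.30, −1.36 and −1.92 in GR iKO on water and 1.00, 0.82 and −0.12 in Flox and 0.71, 0.31 and −0.23 in GR iKO on DSS. It rose by 1.85 ± 0.46 in Flox (adjusted p = 0.00585) and by 1.56 ± 0.46 in GR iKO (adjusted p = 0.0184). Its difference between genotypes on DSS, −0.31 ± 0.59 (adjusted p = 0.846), was the smallest of the 33.

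Among the 13 linker, dense body and Z-disc-type genes, 11 rose with DSS in Flox and 5 in GR iKO (Pgm5, Flna, Smtn, Nexn and Speg), and apart from Smtn the Flox differences of all 13 were below 0 on the spike-in scale. Smtn, a marker of contractile smooth muscle, measured 1.11, 0.93, 0.53 and 0.64 in Flox and 1.15, 0.57, 0.87 and 0.67 in GR iKO on water and 3.36, 3.33 and 3.09 in Flox and 0.90, 1.88 and 1.94 in GR iKO on DSS. GR iKO DSS replicate 1 lay inside the water range, while the other GR iKO DSS arrays lay between the water and the Flox DSS arrays. Its differences were 2.46 ± 0.28 in Flox (adjusted p = 3.31e-05), 0.76 ± 0.28 in GR iKO (adjusted p = 0.0482) and −1.68 ± 0.36 between genotypes on DSS (adjusted p = 0.0755). The GR iKO call of Smtn held in 9 of 27 settings other than spike-in scaling, with an adjusted p of up to 0.23.

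Des and Synm encode intermediate filament proteins, desmin and synemin. Des measured 4.68, 4.40, 3.95 and 3.77 in Flox and 4.94, 4.05, 4.25 and 3.80 in GR iKO on water and 5.47, 5.05 and 5.80 in Flox and 3.28, 4.60 and 3.99 in GR iKO on DSS. Synm measured 3.72, 3.44, 3.24 and 2.85 in Flox and 3.69, 3.15, 2.99 and 2.68 in GR iKO on water and 4.13, 4.02 and 4.86 in Flox and 1.95, 3.97 and 2.70 in GR iKO on DSS. In both genes GR iKO DSS replicate 1 was the lowest array of 14 and all 3 Flox DSS arrays lay above all 3 GR iKO DSS arrays. Des rose by 1.24 ± 0.43 in Flox (adjusted p = 0.0314) and its genotype difference on DSS was −1.48 ± 0.55 (adjusted p = 0.19). Synm measured 1.02 ± 0.44 in Flox (adjusted p = 0.0748) and −1.46 ± 0.57 between genotypes on DSS (adjusted p = 0.207).

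Lmod1, which nucleates actin filaments in smooth muscle, measured 2.44, 2.52, 2.41 and 2.29 in Flox and 2.73, 2.46, 2.59 and 2.40 in GR iKO on water and 4.34, 4.45 and 3.79 in Flox and 2.42, 3.19 and 3.32 in GR iKO on DSS. It rose by 1.78 ± 0.20 in Flox (adjusted p = 3.6e-05) and measured 0.43 ± 0.20 in GR iKO (adjusted p = 0.114). Pgm5, a protein of adherens-type junctions related to phosphoglucomutase, measured 3.97, 3.76, 3.73 and 3.53 in Flox and 4.06, 3.69, 3.66 and 3.38 in GR iKO on water and 5.41, 5.63 and 5.45 in Flox and 4.40, 4.37 and 4.67 in GR iKO on DSS. All 6 of its DSS arrays lay above all its water arrays. It rose by 1.75 ± 0.22 in Flox (adjusted p = 6.32e-05) and by 0.78 ± 0.22 in GR iKO (adjusted p = 0.0137), the largest GR iKO difference of the linker genes.

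Pdlim3, a PDZ and LIM domain protein that binds alpha-actinin, measured 4.35, 4.19, 4.04 and 3.80 in Flox and 4.61, 4.09, 4.01 and 3.88 in GR iKO on water and 4.93, 5.23 and 5.39 in Flox and 2.41, 4.48 and 4.25 in GR iKO on DSS. GR iKO DSS replicate 1 was far below every other array, and the other GR iKO DSS arrays fell within the water range. Its differences were 1.09 ± 0.39 in Flox (adjusted p = 0.0348) and −1.47 ± 0.50 between genotypes on DSS (adjusted p = 0.159). Ldb3, a Z-disc protein best known from striated muscle, measured −1.88, −2.07, −2.13 and −2.14 in Flox and −2.07, −2.06, −2.02 and −2.27 in GR iKO on water and −2.01, −1.93 and −2.34 in Flox and −2.80, −3.45 and −1.69 in GR iKO on DSS. Its difference in Flox was −0.04 ± 0.27 (adjusted p = 0.919). A dimmer second probe of Ldb3 gave 1.25 ± 0.44 for the same comparison (adjusted p = 0.0348), so the probes disagree on this gene.

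The remaining linker genes showed Flox increases between 1.30 (Synpo2, an actin-bundling protein) and 2.06 (Speg, a muscle kinase). A dimmer second probe of Synpo2 gave 0.75 ± 0.49 in Flox, with no call (adjusted p = 0.225). Nexn, an actin-binding protein of cell-matrix junctions, had the smallest SE of all 33 genes. It rose by 1.73 ± 0.13 in Flox (adjusted p = 2.73e-06) and by 0.68 ± 0.13 in GR iKO (adjusted p = 0.00125). Flna, the actin cross-linker filamin A, rose by 1.71 ± 0.23 and 0.77 ± 0.23 (adjusted p = 9.69e-05 and 0.0178). Csrp1 and Pdlim7, LIM domain proteins of actin bundles, rose in Flox by 1.58 ± 0.22 and 1.52 ± 0.28 (adjusted p = 0.000135 and 0.000828).

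Of the 5 genes of calcium handling and the membrane, 4 rose with DSS in Flox, 1 rose and 1 fell in GR iKO, while on the spike-in scale the Flox differences of all 5 were below 0. Cacna1c, the pore subunit of the L-type calcium channel, measured −3.57, −3.94, −3.96 and −3.95 in Flox and −3.90, −3.98, −4.11 and −3.92 in GR iKO on water and −2.01, −1.73 and −2.16 in Flox and −3.10, −2.01 and −2.92 in GR iKO on DSS. All its DSS arrays lay above all its water arrays, and the genotypes overlapped on DSS. It rose by 1.89 ± 0.22 in Flox (adjusted p = 4e-05) and by 1.30 ± 0.22 in GR iKO (adjusted p = 0.000758). Kcnmb1, the accessory subunit of the calcium-activated potassium channel, rose by 1.22 ± 0.25 in Flox (adjusted p = 0.00173), and Jph2, which tethers the calcium store to the surface membrane, by 1.56 ± 0.24 (adjusted p = 0.000275).

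Pln, the phospholamban that restrains the calcium pump of the store, measured −2.77, −2.09, −2.88 and −2.85 in Flox and −2.32, −2.68, −2.35 and −2.53 in GR iKO on water and −1.19, −0.74 and −1.32 in Flox and −4.78, −2.98 and −2.18 in GR iKO on DSS. It had the largest genotype difference on DSS, −2.23 ± 0.56 (adjusted p = 0.0916), and rose by 1.56 ± 0.43 in Flox (adjusted p = 0.0107). In GR iKO its difference with DSS was −0.84 ± 0.43 (adjusted p = 0.145), and GR iKO DSS replicate 1 lay well below the other 13 arrays.

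Casq2, a calcium-binding protein inside the store, had the most negative difference with DSS in both genotypes. It measured −1.18, −0.81, −1.12 and −1.52 in Flox and −1.31, −1.23, −1.71 and −1.94 in GR iKO on water and −2.58, −2.03 and −2.26 in Flox and −5.76, −3.07 and −3.54 in GR iKO on DSS. All DSS arrays of both genotypes lay below all water arrays, and on GR iKO DSS replicate 1 it was not well above background. The difference in Flox was −1.13 ± 0.47 (adjusted p = 0.0625), in GR iKO Casq2 fell by 2.57 ± 0.47 (adjusted p = 0.00115), and between genotypes on DSS it was −1.83 ± 0.60 (adjusted p = 0.149). On the spike-in scale its differences with DSS were −3.45 in Flox and −3.50 in GR iKO. That scaling shifted all probes downward with DSS in both genotypes, so it is no separate check of a lower value.

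Myocd, the coactivator of serum response factor that switches on contractile genes, measured −2.76, −2.77, −2.87 and −2.57 in Flox and −2.51, −2.79, −2.83 and −3.04 in GR iKO on water and −0.95, −0.97 and −0.89 in Flox and −2.66, −1.41 and −1.88 in GR iKO on DSS. The 3 Flox DSS arrays nearly coincided, and the GR iKO DSS arrays ran from the water range up towards them. It rose by 1.81 ± 0.24 in Flox (adjusted p = 8.73e-05) and by 0.81 ± 0.24 in GR iKO (adjusted p = 0.0171), and its genotype difference on DSS was −1.05 ± 0.30 (adjusted p = 0.118).

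**Figure D3:**
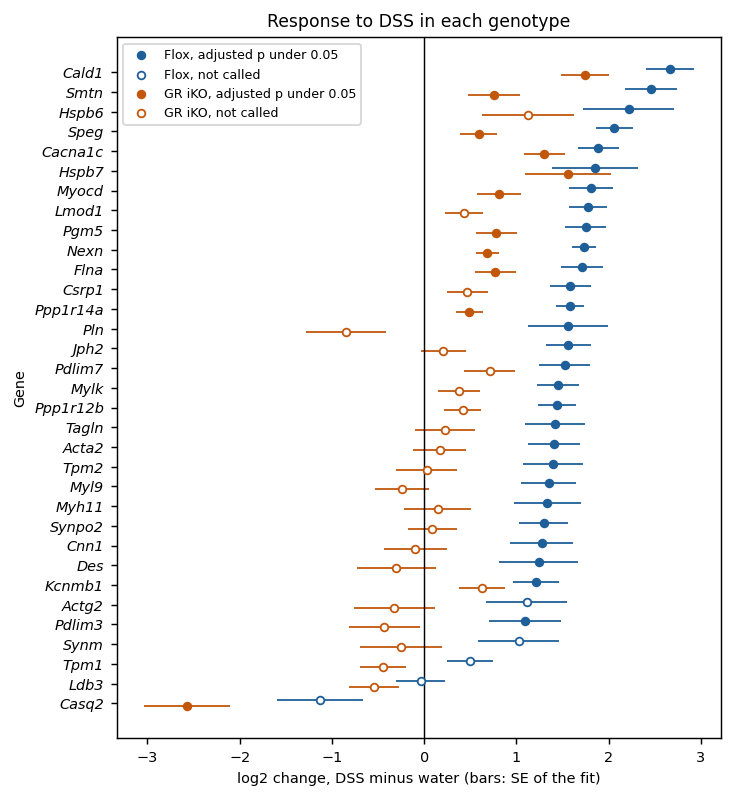
Points are log2 differences, DSS minus water, in Flox (blue) and GR iKO (orange), bars are the SE of the fit, and filled points have an adjusted p under 0.05; genes are ordered by the Flox value. The GR iKO point lies left of the Flox point in all 33 genes, and right of it in 25 with spike-in scaling; with spike-in scaling the Flox points of all genes but Cald1 and Smtn lie below 0.

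Serum response factor binds the CArG box, a run of 10 bases with a central stretch of A and T between a pair of C and a pair of G, which reads as a box on both strands. RefSeq promoter windows (GRCm38.p6) covered 28 of the 33 genes, and no window was found for Actg2, Myocd, Nexn, Myh11 and Tagln. Within the 250 bases before a listed start, 2 genes (Myl9 and Ldb3) held a box, 7.14% of those covered, against 1.62% of all genes. Allowing 1 G or C among the 6 central bases, 9 genes held one (32.1%, against 9.78% of all genes). These are matches of letters, and binding was not measured. The boxes of Acta2 and Myl9, filament genes that rose in Flox, and of Jph2 and Ldb3, a calcium-handling and a linker gene, are shown with the box in capitals.
Acta2 at chr19:34255438-34255467, minus strand, box 84 bases before the listed start: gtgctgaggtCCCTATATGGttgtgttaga
Acta2 at chr19:34255388-34255417, minus strand, box 34 bases before the listed start: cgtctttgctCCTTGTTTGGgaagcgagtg
Myl9 at chr2:156775293-156775322, plus strand, box 161 bases before the listed start: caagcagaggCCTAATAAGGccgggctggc
Myl9 at chr2:156775355-156775384, plus strand, box 99 bases before the listed start: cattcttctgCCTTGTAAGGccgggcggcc
Jph2 at chr2:163398047-163398076, minus strand, box 73 bases before the listed start: gatccaatggCCTTGTTAGGgcaacactga
Ldb3 at chr14:34588697-34588726, minus strand, box 35 bases before the listed start: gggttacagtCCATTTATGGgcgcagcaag
The Myl9 box further from the start and the Ldb3 box have no G or C in the centre, and the other 4 have 1.

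On water the median of the 33 values, each set against its Flox water mean, was 0.22, 0.10, −0.11 and −0.25 in Flox and 0.32, −0.05, −0.01 and −0.29 in GR iKO. Flox water replicates 1 to 4 were above the group mean for 30, 30, 6 and 2 of the 33 genes, and GR iKO water replicates for 32, 13, 12 and 2, with no share over all probes computed. On DSS the same median was 1.44, 1.41 and 1.62 in Flox, and −0.01, 0.65 and 0.40 in GR iKO. Among the 6 DSS arrays GR iKO replicate 1 was the lowest for 28 of 33 genes, beside 26.5% of all probes. It was the lowest of all 14 arrays for 15 genes, a count for which no share over all probes was computed. The median SD of the genes within a group was 0.22 in Flox on DSS and 0.57 in GR iKO on DSS, beside 0.26 and 0.34 over all probes. On water it was 0.23 in Flox and 0.25 in GR iKO, beside 0.18 and 0.17 over all probes. The median SD of these genes was thus higher on DSS than on water in GR iKO and not in Flox. That over all probes was higher on DSS in both genotypes. In each group but Flox on DSS these genes had a larger median SD than all probes. The fit gave both DSS groups the same weight. With a weight for each group, 31 genes were called with DSS in Flox (52.3% of all probes) and 9 in GR iKO (34.4%).

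GR iKO DSS replicate 1 lies on an array slide that holds no Flox DSS array. Without that array the median genotype difference on DSS was −0.94, with 0 calls. Within slides that held both genotypes on DSS, all 33 genes were lower in GR iKO on slide 1 (median −0.80) and 32 of 33 on slide 4 (median −1.08). Of all probes 49.4% and 50.5% were lower there, with medians of 0.01 and −0.01. For DSS in Flox the medians within slides 1, 2 and 4 were 1.26, 1.30 and 1.89, beside −0.11, −0.09 and −0.01 over all probes. In GR iKO they were 0.73 on slide 1, 0.63 on slide 4 and −0.43 on slide 3, which holds replicate 1. Over all probes they were 0.01, 0.0025 and −0.07.

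A further 29 probes measured 20 of the 33 genes. With DSS in Flox, 24 of them were called higher and 0 lower, in GR iKO 11 and 0, while on the spike-in scale 27 and 22 had negative differences. Between genotypes on DSS all 29 were lower in GR iKO, from −1.52 to −0.34 (7 of 29 on the spike-in scale), and 0 were called (limma), with 20 at an unadjusted p under 0.05.

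Other genes of smooth muscle contraction, 58 tested genes for receptors, signalling, calcium stores, adhesion and transcription, gave 42 higher and 2 lower calls with DSS in Flox (median 1.15) and 23 and 4 in GR iKO (median 0.56), and on the spike-in scale both medians were below 0 (−1.17 and −0.37). The largest Flox increases were those of the neurokinin receptor Tacr2 (2.70 ± 0.29, adjusted p = 2.31e-05) and the sarcoglycan Sgca (2.44 ± 0.59, adjusted p = 0.00509). The falls were those of the transcriptional regulators Gata6 (−1.30 ± 0.14, adjusted p = 2.76e-05) and Mrtfb (−0.95 ± 0.25, adjusted p = 0.00831). In GR iKO the largest increases were those of Foxf1, a transcription factor of gut mesenchyme (1.87 ± 0.20, adjusted p = 3.41e-05), and the cation channel Trpc4 (1.69 ± 0.32, adjusted p = 0.0015), and the lowest values those of the LIM protein Fhl1 (−1.53 ± 0.32, adjusted p = 0.00273) and the integrin Itga8 (−1.24 ± 0.31, adjusted p = 0.00788).

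Between genotypes on DSS, 0 of these 58 genes were called (limma), with a median of −0.60 (0.64 on the spike-in scale), and at an unadjusted p under 0.05 there were 27 lower and 1 higher. The adhesion and membrane skeleton genes, which include the sarcoglycans, vinculin and talin, were all lower in GR iKO (22 genes, median −0.76, or 0.47 on the spike-in scale), and 12 of them were so at an unadjusted p under 0.05. Of the receptor, signalling and calcium genes 13 of 29 were lower at that threshold. The lowest of them was the muscarinic receptor Chrm2 (−1.75 ± 0.64, adjusted p = 0.185). The 7 transcriptional regulators had a median of −0.07 (1.14 on the spike-in scale). Srf, the partner of Myocd, rose by 0.49 ± 0.13 with DSS in Flox (adjusted p = 0.00896) and measured −0.49 ± 0.17 between genotypes on DSS (adjusted p = 0.167).

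Markers of other cells of the colon wall moved with DSS as well, and their part in the contractile gene results was not tested. The summed level of the 8 smooth muscle markers, in multiples of the 75th percentile, was 441 to 697 in Flox and 415 to 686 in GR iKO on water, and 1046 to 1883 in Flox and 355 to 827 in GR iKO on DSS. Enteric neuron markers rose in 7 of 7 tested genes in both genotypes (medians 2.63 in Flox and 2.01 in GR iKO), glial markers in 4 of 4 (2.32 and 1.44) and fibroblast markers in 6 of 6 (1.36 and 0.98). Pericyte and vascular markers rose in 6 of 6 genes in Flox and 5 of 6 in GR iKO (medians 2.41 and 1.22). Of 10 epithelial markers, 1 rose and 3 fell in Flox, and 1 rose and 1 fell in GR iKO. On the spike-in scale the medians with DSS in Flox were 0.31 for neurons, −0.0018 for glia, −0.96 for fibroblasts, 0.09 for pericytes and vessels and −0.95 for the smooth muscle markers, and in GR iKO 1.08, 0.51, 0.06, 0.29 and −0.77, and the epithelial medians were −2.66 and −0.90.

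Between genotypes on DSS, no marker of these lists was called (limma). At an unadjusted p under 0.05, 8 of 8 smooth muscle, 5 of 7 neuron, 3 of 4 glial, 2 of 6 pericyte and vascular, 1 of 6 fibroblast and 4 of 4 adipocyte markers were lower in GR iKO, and 5 of 10 epithelial and 3 of 5 neutrophil markers were higher. The median difference was −1.34 for the 8 smooth muscle markers, −0.98 for glia, −0.95 for neurons, −0.34 for pericytes and vessels, −0.29 for fibroblasts and 0.54 for epithelium. Adipocyte markers had a median of −2.65 (4 genes) and neutrophil markers one of 2.84 (5 genes). The adipocyte list stood at −2.26, 1.25 and −2.86 on the GR iKO DSS arrays and at 0.48, 2.07 and 1.64 in Flox, so GR iKO replicate 3 lay inside the Flox range. On the spike-in scale the adipocyte median stayed below 0 (−1.43), the smooth muscle median was −0.13, and those of glia, neurons, pericytes and vessels, and fibroblasts were above 0 (0.23, 0.26, 0.87 and 0.93). The summed level of neutrophil markers was 24.0 to 66.7 in Flox and 83.8 to 285 in GR iKO on DSS, against 0.117 to 0.417 and 0.168 to 0.542 on water. Skeletal muscle markers, of which 11 of 13 were tested, summed to 9.65 to 13.6 in Flox and 6.69 to 7.08 in GR iKO on DSS, and in each of these groups 2 of the 13 were well above background on no array. Acta1 was the highest of these markers on each DSS array, so it weighed most in the sum. It measured 2.61, 2.60 and 3.34 in Flox and 1.56, 2.12 and 2.17 in GR iKO. The muscle creatine kinase Ckm, at −2.13 ± 0.46 (adjusted p = 0.0771), had the lowest genotype difference of the skeletal muscle markers.

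**Figure D4:**
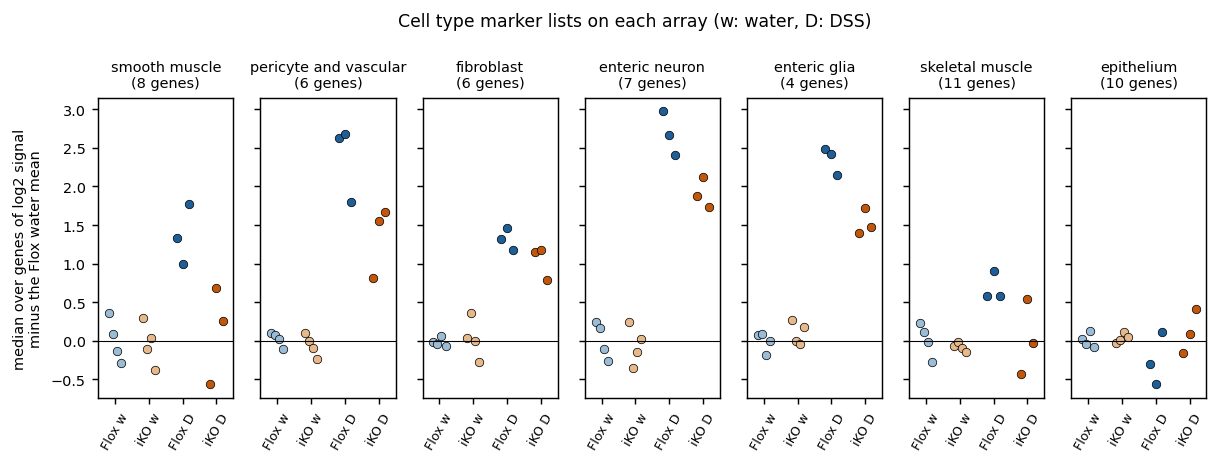
Each point is an array, and its height is the median over the genes of a marker list of the log2 signal minus the Flox water mean (w, water; D, DSS). The genes of the smooth muscle panel are members of the contractile gene list. The Flox DSS arrays are the highest in the smooth muscle panel, between 0.99 and 1.78, and the GR iKO DSS arrays run from −0.57 to 0.68; the neuron and glia lists are above all water arrays in both genotypes, while on the spike-in scale the Flox differences were −0.95 for smooth muscle, 0.31 for neurons and −0.0018 for glia.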

How the data were processed

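RNA from 14 colon samples was labelled with Cy3 and hybridised to 1-colour Agilent whole mouse genome arrays. The deposited scanner files hold the intensity of each spot (the processed signal, per the file headers already background-subtracted and detrended by Feature Extraction 12.0.0.7, which sets low values to a small positive one) and its flags. A deposited table of log2 values, made with Partek 6.6 per the submitters' processing notes, has a median of 6.053 on every array and followed the log2 processed signal (lowest r of an array 0.999). Its values served as an alternative, and what was done to equalise the arrays is not given in the sources used here.

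Control spots and flagged spots were left out, repeat spots of a probe averaged, and log2 signal set against the 75th percentile of each array. Probes well above background on at least 3 of 14 arrays were tested (29520 of 41174). Groups followed the labels. One limma fit (limma 3.58.1, R 4.3.3) of 4 group means used array weights for 2 strata, water and DSS, because DSS arrays varied more over all probes. A comparison was called at an adjusted p under 0.05 after the Benjamini-Hochberg method. The Nr3c1 check used exact permutation tests. Of 29245 probes with RefSeq accessions 28223 were matched to a symbol. The fit was tested on simulated data. Figures used Python 3.11.15 and matplotlib 3.10.9.

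The members, gene lists and weights were chosen with earlier results of these data known. Values of every array were printed for the classical markers, for the members with the largest or smallest difference of a role group, and for the 6 lowest and 2 highest genotype differences on DSS. Of the other pathway genes, those named are the called ones with the largest and the lowest differences, or the largest and lowest where none was called; vinculin, talin, the sarcoglycans, Srf and Ckm were named outside that rule, after their values were seen. Alternatives covered the weights, the arrays in the fit, background correction (normexp on the median spot signal in place of the planned mean signal, offset 50), normalization, the value table, dim probes, flags, the probe, slide, replicate number and each array left out. Arrays have no counting error; the number of arrays limits the precision, and p-values measure the spread between the samples, of which the series text counts as many as mice in each group.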

Additional observations from a re-analysis of the deposited data

Results flagged for a closer look

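Of 66 groups of 4 water arrays, 1 per gene and genotype, 3 held an array whose gap to its neighbour was large against the range of the group. Pln was at −2.09 on Flox water replicate 2, and at −2.88 to −2.77 on the other 3 Flox water arrays. Cacna1c was at −3.57 on Flox water replicate 1, and at −3.96 to −3.94 on the others. Myl9 was at 7.11 on GR iKO water replicate 4, and at 7.50 to 7.54 on the others. Chance flags about 1 in 20 groups. Groups of 3 were not examined in this way.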

How the results depend on the processing

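Scaling each array to 7 spike-in probes moved the median of all probes to −2.41 (DSS in Flox), −0.95 (DSS in GR iKO), −0.19 (genotype on water), 1.24 (genotype on DSS) and 1.42 (difference in response), and the member medians to −0.87, −0.55, −0.19, 0.014 and 0.20. There 13 members were called lower in Flox (85.5% of all probes called) and 6 in GR iKO (42.5%), and 26 of the 28 Flox calls changed sign. Within a comparison the shift is common to all probes, so these changes of sign are not separate results of each gene. The opposite signs, as log2 differences on this scale, were in Flox Acta2 −0.91, Actg2 −1.21, Myh11 −0.98, Tagln −0.90, Cnn1 −1.05, Des −1.08, Lmod1 −0.54, Synpo2 −1.02, Speg −0.26, Pln −0.76, Ppp1r14a −0.74, Ppp1r12b −0.88, Mylk −0.87, Myl9 −0.97, Tpm1 −1.82, Tpm2 −0.93, Myocd −0.51, Flna −0.61, Synm −1.30, Pgm5 −0.57, Hspb6 −0.10, Hspb7 −0.47, Kcnmb1 −1.10, Pdlim3 −1.23, Pdlim7 −0.79, Csrp1 −0.74, Jph2 −0.76, Nexn −0.59, Cacna1c −0.43, and in GR iKO Smtn −0.17, Speg −0.33, Ppp1r14a −0.44, Myocd −0.12, Flna −0.15, Pgm5 −0.14, Nexn −0.24. The genotype difference of Nr3c1 on DSS became 0.38 (exact permutation p = 0.6). Normexp moved the median of all probes with DSS in Flox to 0.22 and gave 27 higher calls and 1 lower, Casq2, which 8 of 26 settings other than spike-in scaling called lower. The cause of these moves was not tested. The second probe of Ldb3 gave 1.25 in Flox. A shared spread called 29 members between genotypes on DSS (13.2% of all probes) and 3 in the difference in response (0.112%); array quality weights called 27 (15.1%) and 18 (10%). Leaving out 1 array gave 23 to 31 calls in Flox (median 1.41 to 1.55), 5 to 16 in GR iKO (median 0.26 to 0.59), 0 to 0 between genotypes on water (median −0.14 to 0.095), 0 to 10 on DSS (median −1.35 to −0.94) and 0 to 1 in the difference in response (median −1.45 to −0.87). Shares of all probes called are not given here for these fits. Over the 27 settings other than spike-in scaling, 21 of 28 Flox calls and 4 of 11 GR iKO calls held in each, and all 33 members were lower in GR iKO on DSS. No such counts are given here for all probes. Over all probes, deviations of same-numbered arrays had r from −0.08 to 0.31 and those of others −0.28 to 0.25. The ranges overlapped, and numbers were not taken as pairs. The member medians on water were nonetheless highest on replicate 1 (0.22 in Flox, 0.32 in GR iKO) and lowest on replicate 4 (−0.25 and −0.29) in both genotypes. With a replicate block there were 28 calls in Flox (48.3% of all probes), 13 in GR iKO (39.8%) and 0 between genotypes on DSS (0% of all probes). The difference in response has no value for only the arrays compared, since it uses all 4 groups. Signals not well above background limit Casq2 on 1 array.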
